A study of Mus musculus with 12 samples.

Results

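The 10 genes examined here control passage through G1 and were followed in effector cytotoxic CD8+ T cells (CTL): the cyclins Ccnd2, Ccnd3, Ccne1 and Ccne2, the cyclin-dependent kinases (CDKs) Cdk4 and Cdk6, the CDK inhibitors Cdkn1a and Cdkn1b, and the pocket proteins Rb1 and Rbl1. They were taken by gene symbol, all 10 were present among the 11022 genes measured, and the rule that selects them uses gene symbols and no measured value. The set itself was chosen with earlier results of these data known, so its counts beside those of all genes are descriptions. RNA sequencing of polyadenylated RNA was performed on 12 samples in 4 groups of 3 biological replicates. All CTL came from P14 transgenic mice, whose T cell receptor (TCR) recognises the LCMV peptide gp33-41; the methods describe female mice of 9 to 13 weeks, with cells from 3 mice giving 3 biological replicates. Every group had been primed for 48 h with that peptide together with IL-2 and IL-12, expanded for 5 days in IL-2 and plated in 20 ng/mL IL-2. Unstimulated CTL were left without peptide, TCR samples received 100 ng/mL peptide for 4 h, TCR+PI3Kdi samples received peptide with 10 µM IC87114, an inhibitor of the PI3K p110δ catalytic subunit, and TCR+MEKi samples received peptide with 2 µM PD184252, an inhibitor of MEK. DMSO was the vehicle. Each inhibitor was tested as a single compound at a single dose and time, so a class effect cannot be separated from an effect of the compound. No group received an inhibitor without peptide. An effect on the peptide response and an effect on CTL kept in IL-2 therefore cannot be told apart.

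In G1, D-type cyclins bind CDK4 and CDK6, and E-type cyclins bind CDK2. These kinases phosphorylate the pocket proteins RB1, p107 (Rbl1) and p130 (Rbl2), which otherwise hold E2F transcription factors in check, so that E2F target genes for DNA replication are expressed. The CIP/KIP proteins p21 (Cdkn1a) and p27 (Cdkn1b) bind cyclin and CDK complexes, and p27 is best known as a brake that activated T cells remove as they enter the cycle. Cyclin D2 and D3 are the D cyclins that T cells mainly use. On GRCm38 the cyclin genes lie at chr6:127125162-127152193 (Ccnd2, - strand), chr17:47505051-47599691 (Ccnd3, +), chr7:38097984-38107534 (Ccne1, -) and chr4:11191351-11204779 (Ccne2, +). The kinase genes lie at chr10:127063534-127067920 (Cdk4, +) and chr5:3341485-3531008 (Cdk6, +), and the inhibitor genes at chr17:29090976-29100727 (Cdkn1a, +) and chr6:134920401-134925513 (Cdkn1b, +). Rb1 lies at chr14:73183673-73325822 (-) and Rbl1 at chr2:157145893-157204534 (-), and each level is taken over all exons of a gene.

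Levels are given as FPKM, fragments scaled by exon length and library size. A comparison between genes rests on the exon lengths used, whereas a comparison of 1 gene between samples does not. The effective depth was estimated at 7870000 to 13250000 reads per sample, and the member with the fewest reads, Cdkn1b, had about 87 in its lowest sample, for which counting alone gives a spread of 10.7%. The summed FPKM was not equal between groups: it was 470420 to 495945 in unstimulated CTL, 620715 to 666922 after peptide, 549897 to 585849 with the PI3K p110δ inhibitor and 524343 to 539350 with the MEK inhibitor. Rescaling to a common sum therefore moved the median log2 difference of all genes to -0.41 for TCR against unstimulated, 0.19 for TCR+PI3Kdi against TCR and 0.26 for TCR+MEKi against TCR. All 7 CD8 T cell markers (the CD3 chains, Cd8a, Cd8b1, Cd2 and Lck) were present, with a summed level of 1546 to 1716 FPKM in unstimulated CTL, 1855 to 2038 after peptide, 1784 to 1932 with the PI3K inhibitor and 1910 to 1951 with the MEK inhibitor. Of markers of other cells, none of 5 B cell and none of 5 erythroid genes were in the table, and 1 of 2 CD4 T cell genes was present, Cd4, at 0.44 to 0.99 FPKM in unstimulated CTL, 2.54 to 2.87 after peptide, 1.96 to 3.65 in TCR+PI3Kdi and 0.28 to 0.66 in TCR+MEKi samples. Cd68, the only 1 of 6 macrophage genes present, stood at 7.86 to 8.44, 4.88 to 8.40, 6.11 to 7.94 and 6.84 to 8.25 FPKM in the same order of groups. The 2 of 5 dendritic cell genes present, Itgax and Zbtb46, summed to 0.32 to 0.51, 3.70 to 4.28, 2.49 to 2.61 and 3.12 to 3.77 FPKM, so this sum was higher in every peptide-stimulated sample, and most of it was Zbtb46, whose mean was 0.027 FPKM in unstimulated CTL and 3.49 after peptide. The 5 cytotoxic genes (Gzma, Gzmb, Prf1, Nkg7 and Ifng), which enter the FPKM sums above, summed to 16797 to 18335 FPKM in unstimulated CTL. Their sum was 51723 to 56256 FPKM after peptide, 41522 to 46004.5 in TCR+PI3Kdi and 36339 to 38609 in TCR+MEKi samples. Mean Ifng alone was 72.4 FPKM in unstimulated CTL and 29597 after peptide. The part of these differences in the results and in the rescaling was not tested.

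After 4 h of peptide, most of these mRNAs were lower. Ccnd3 fell by 2.65 on the log2 scale, Rbl1 by 1.77, Ccne2 by 1.40, Rb1 by 1.25 and Cdkn1b by 1.23, while Ccnd2 and Cdkn1a were higher in peptide-stimulated CTL, by 0.99 and 0.73. Called changed, here and below, means a Benjamini-Hochberg adjusted p under 0.05 in limma over all 11022 genes and more than a 2-fold difference on the log2(FPKM + 0.1) scale. By that rule 5 of 10 members fell and 0 rose, against 11.1% of all genes that fell and 8.87% that rose. At the adjusted p alone, 8 members were lower and 2 higher, whereas 68.6% of all genes passed in either direction, and the 3 values of each group did not overlap for any of the 10 members, as for 71.2% of all genes. The median log2 difference was -1.08 over the members and -0.01 over all genes. Rescaled to a common FPKM sum, 6 members were called lower. That rescaling moved the median of all genes to -0.41, and 2276 of all 11022 genes were then called lower. Against that median, 8 members lay below and 2 above. In these bulk samples, fewer cycling cells and less RNA per cell cannot be told apart.

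With the PI3K p110δ inhibitor, none of the 10 members differed from peptide alone by more than 2-fold, so 0 were called in limma and also 0 by voom, while 7 had an unadjusted p under 0.05. Here and below, voom was run on approximate reads rebuilt from the same FPKM. It was chosen after the data were seen and is not an independent check. Among all genes, 1.88% were called. At the adjusted p alone, Cdkn1b, Rb1, Rbl1 and Ccne2 were higher with the inhibitor and Ccnd2 and Cdkn1a were lower, 6 of 10 members against 25.6% of all genes. The same 6 were the members whose groups did not overlap, against 37.6% of all genes. The median of the members was 0.13, and that of all genes was 0.02. Rescaled to a common sum, 5 members were higher and 2 lower at the adjusted p. The median of all genes was then 0.19, and 6 members lay above it and 4 below.

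With the MEK inhibitor, again 0 of 10 members were called in limma and 0 by voom, with 9 at an unadjusted p under 0.05 and 3.49% of all genes called. At the adjusted p alone, 7 members were higher (Cdkn1b, Rbl1, Cdk6, Rb1, Ccne2, Ccne1 and Ccnd3) and Ccnd2 and Cdkn1a were lower, 9 of 10 against 37.1% of all genes. These 9 did not overlap between the groups, against 48.8% of all genes. The median of the members was 0.41 and that of all genes was 0.01. Rescaled in the same way, 8 members were higher and 0 lower at the adjusted p. The median of all genes was then 0.26, and 7 members lay above it and 3 below. Both inhibitor comparisons use the same 3 TCR samples, which also enter the comparison with unstimulated CTL, so a TCR sample that happens to be low or high moves all 3.

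**Figure D1:**
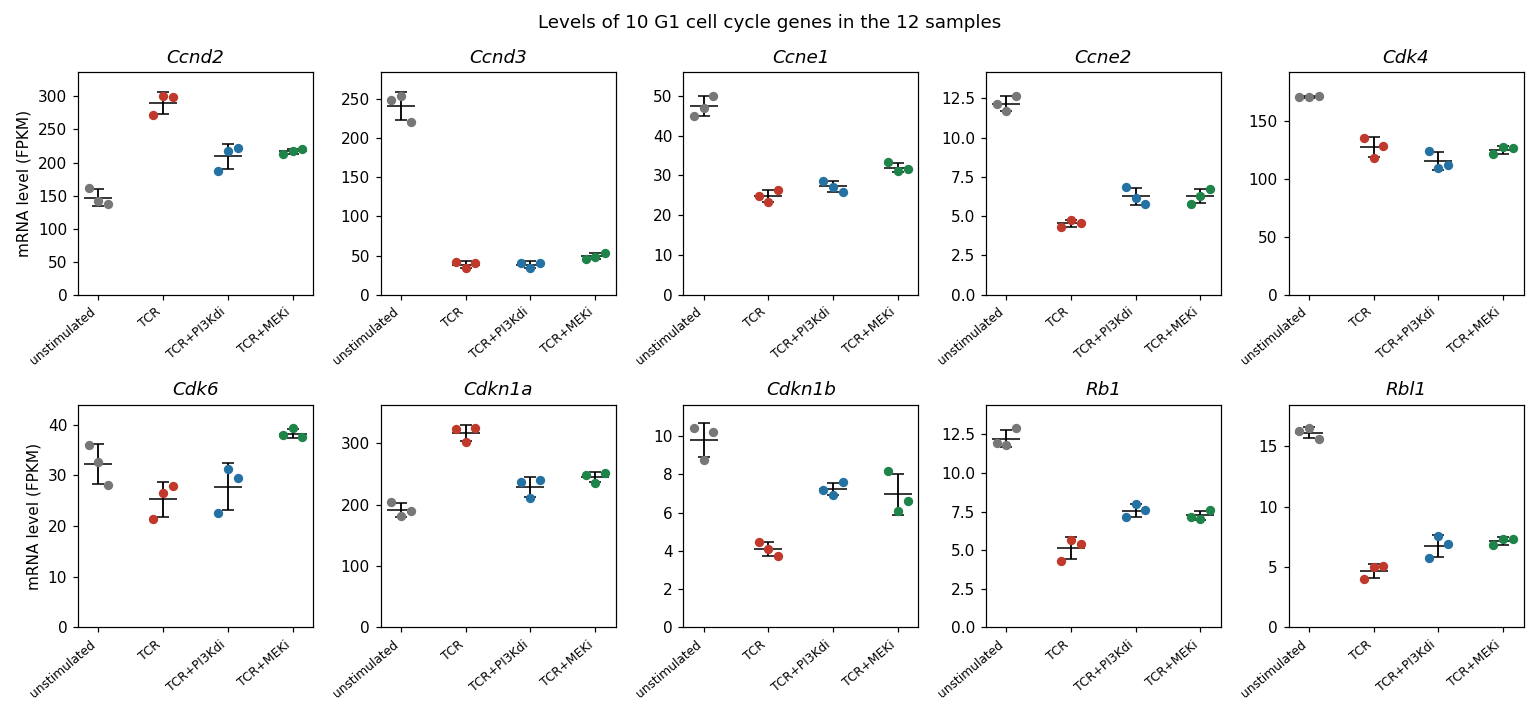
FPKM (vertical axis, linear, from 0) of each of the 10 genes in unstimulated, TCR, TCR+PI3Kdi and TCR+MEKi samples; points are the 3 samples of a group, horizontal bars the mean and whiskers the SD. Ccnd3 stands at 221 FPKM or more in unstimulated CTL and at 53.6 FPKM or less in every peptide-stimulated sample, whereas Ccnd2 and Cdkn1a are highest after peptide alone.

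**Figure D2:**
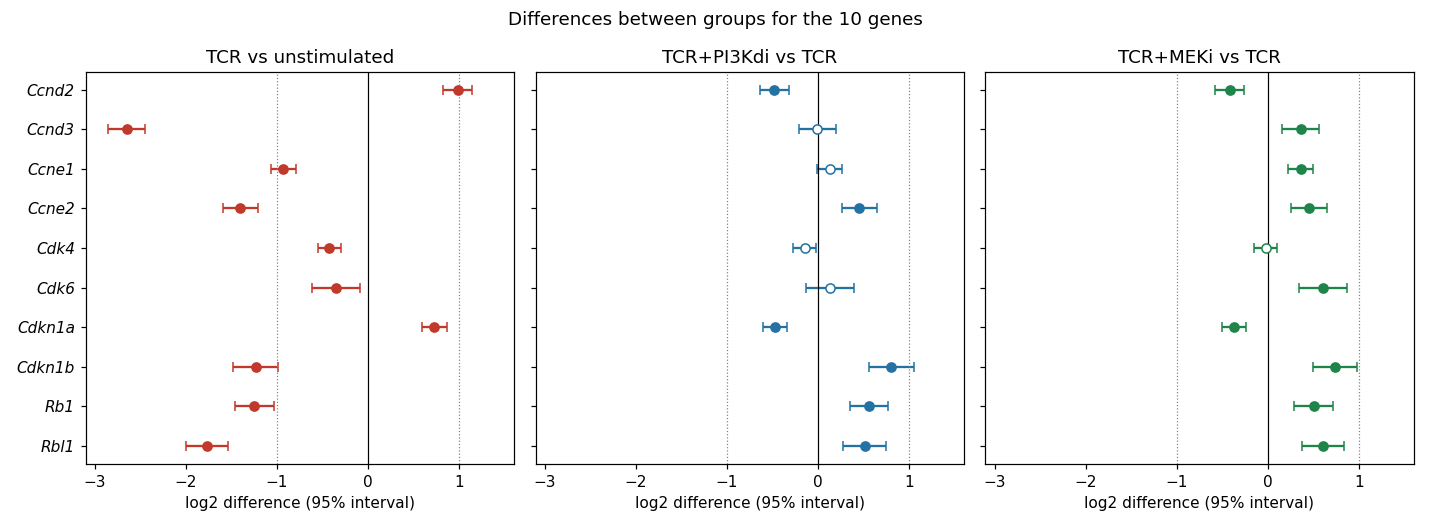
The log2 difference of each gene (horizontal axis, with its 95% interval from limma) for TCR against unstimulated, TCR+PI3Kdi against TCR and TCR+MEKi against TCR; filled circles have an adjusted p under 0.05 and dotted lines mark a 2-fold difference. For peptide, 5 genes lie beyond the left dotted line, and with either inhibitor no gene lies beyond a dotted line.

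The D cyclins moved apart. By FPKM, Ccnd3 was the more abundant D cyclin mRNA in unstimulated CTL, where the 3 samples held 249, 254 and 221 FPKM of Ccnd3. That order depends on exon length, 2258 bases for Ccnd3 and 6330 for Ccnd2 over RefSeq exons, but 8775 and 9409 over merged GENCODE exons. Unstimulated samples held about 6281, 5984 and 6617 reads of Ccnd3, and about 11395, 9360 and 11506 of Ccnd2. After peptide the samples held 41.7, 33.8 and 39.8 FPKM of Ccnd3. This was the largest change of any member, a 6.28-fold fall (log2 -2.65 ± 0.09 SE, adjusted p = 3.39e-12), to 15.9% of the unstimulated mean. With the PI3K inhibitor Ccnd3 stood at 33.5 to 41.05 FPKM, which overlapped the TCR samples; the difference of -0.01 had a 95% interval of -0.21 to 0.19 and adjusted p = 0.963 in limma, and its sign changed in 5 of 20 alternatives. With the MEK inhibitor the samples held 45.6, 48.7 and 53.6 FPKM, all above the TCR samples (log2 0.36 ± 0.09, limma adjusted p = 0.00779). Ccnd3 therefore ranked unstimulated, TCR+MEKi, then TCR and TCR+PI3Kdi, with the last 2 groups within each other's spread.

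Ccnd2 was lowest in unstimulated CTL and highest after peptide alone. It stood at 161, 142 and 137 FPKM in unstimulated CTL and at 271, 301 and 299 FPKM after peptide. The 1.98-fold higher level (log2 0.99 ± 0.07, limma adjusted p = 1.75e-08) lay just under the 2-fold line, and Ccnd2 was called when the first unstimulated sample (1.06) or the first TCR sample (1.03) was left out. TCR+PI3Kdi samples held 187, 218 and 222 FPKM and TCR+MEKi samples 214, 217 and 221 FPKM, so that both groups lay between unstimulated and TCR samples with no overlap. The log2 difference from TCR was -0.48 ± 0.07 with the PI3K inhibitor (adjusted p = 0.000332) and -0.42 ± 0.07 with the MEK inhibitor (adjusted p = 0.000532, both limma). The second of these was lost on the common FPKM sum, where it was -0.16 with adjusted p = 0.148, and under quantile normalisation; over the 20 alternatives its adjusted p reached 0.148 at most. The groups with inhibitor could not be ordered between themselves, with an interval of -0.10 to 0.22.

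Because a share within a sample does not depend on how samples are scaled, the 2 D cyclins were also set against each other. The share and the sum do depend on the exon lengths used, which are the same in every sample. Ccnd2 made up 37.8% ± 1.8 (SD, n = 3) of the Ccnd2 and Ccnd3 FPKM in unstimulated CTL and 88.3% ± 1.6 after peptide. It made up 84.5% ± 2.4 in TCR+PI3Kdi samples and 81.5% ± 0.99 in TCR+MEKi samples. The share in every peptide-stimulated sample lay at or above 80.4%, and in every unstimulated sample at or below 39.3%. The summed level of both D cyclins was 388 ± 26.9 FPKM in unstimulated CTL, 329 ± 13.7 after peptide, 247 ± 17.7 with the PI3K inhibitor and 266 ± 7.52 with PD184252. With 3 samples a group, an exact two-sided permutation test of such a share or sum cannot go below 0.10, so no p is given.

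**Figure D3:**
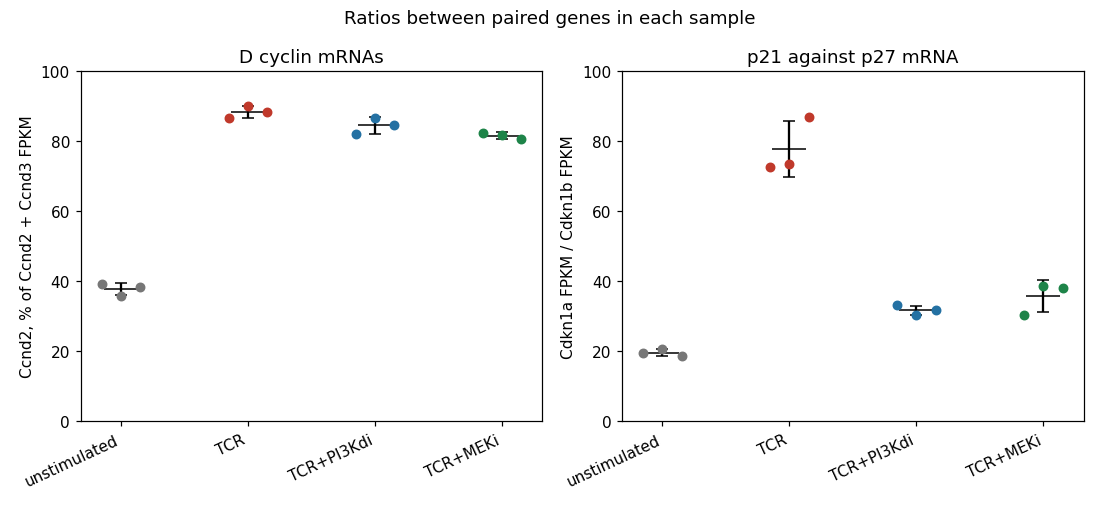
Left, Ccnd2 as a percentage of the Ccnd2 plus Ccnd3 FPKM in each sample; right, the FPKM of Cdkn1a divided by that of Cdkn1b; points are the 3 samples of a group, bars the mean and whiskers the SD. The Ccnd2 share is at most 39.3% in unstimulated CTL and at least 80.4% in every peptide-stimulated sample, and the Cdkn1a to Cdkn1b ratio is highest, 72.5 to 87.0, after peptide alone.

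Promoter sequence from RefSeq (GRCm38.p6) was held for 7 of the 10 members, in 9 windows of 250 bases before a transcription start; Ccnd2, Ccne2 and Rb1 had none in the table. Motifs of factors known to act on this machinery were searched on both strands: an E2F site (TTTNNCGC, each N being C or G), the E-box CACGTG bound by MYC, the FOXO site GTAAACA and the CHR element TTTGAA. They occur in 1.87%, 6.04%, 3.17% and 15.8% of all 32536 promoter windows of this length. Windows are printed for Ccnd3, the member that changed most, and further on for Cdk4 and Rbl1, with motif matches in capitals. For Ccnd3 only the upstream of its 2 windows is printed, and which start CTL use was not measured. The upstream of the Ccnd3 windows (chr17:47504801-47505050, + strand) holds a FOXO site on the opposite strand, at 243 to 237 bases before the start, and the second Ccnd3 window and those of Ccne1, Cdkn1a (2 windows) and Cdkn1b hold none of these letters.
Ccnd3 promoter: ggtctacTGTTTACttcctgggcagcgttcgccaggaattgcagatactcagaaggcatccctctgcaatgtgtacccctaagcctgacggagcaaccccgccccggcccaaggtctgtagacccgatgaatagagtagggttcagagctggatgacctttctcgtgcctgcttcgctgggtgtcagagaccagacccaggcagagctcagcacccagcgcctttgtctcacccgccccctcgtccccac

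E cyclins were lower after peptide. Ccne2 stood at 12.1, 11.7 and 12.7 FPKM in unstimulated CTL and at 4.33, 4.76 and 4.53 FPKM after peptide, a 2.64-fold fall (log2 -1.40 ± 0.09, limma adjusted p = 2.86e-09). It stood at 6.84, 6.15 and 5.80 FPKM with the PI3K inhibitor and at 5.80, 6.27 and 6.70 FPKM with the MEK inhibitor. Both groups lay above TCR and below unstimulated samples without overlap, by a log2 difference from TCR of 0.45 ± 0.09 in each case (limma adjusted p = 0.00203 and 0.00130). Relative to unstimulated CTL they were lower by just under 2-fold, at log2 -0.95 in each; Ccne2 was called for the PI3K inhibitor on the common FPKM sum (-1.18) or without its first sample (-1.01), and for the MEK inhibitor on the common FPKM sum (-1.10). The exons of Ccne2, merged over all GENCODE transcripts, share 17.4% of their length with Ints8 on the opposite strand. Whether the counting used strand is not given in the sources used here. The authors counted RefSeq exons, which are shorter (3200 against 3495 bases), so the share of the counted exons may differ.

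Ccne1 was the more abundant E cyclin in every group. It held 45.1, 47.0 and 50.05 FPKM in unstimulated CTL and 24.8, 23.4 and 26.4 FPKM after peptide. The difference was 1.90-fold (log2 -0.93 ± 0.06, limma adjusted p = 6.35e-09), just under the 2-fold line, and it was called on the common FPKM sum, at -1.34. With the PI3K inhibitor the samples held 28.7, 27.1 and 25.95 FPKM, which overlapped TCR (0.13, interval -0.005 to 0.27; adjusted p = 0.146), although on the common FPKM sum the difference of 0.31 had limma adjusted p = 0.00166, the lowest over the 20 alternatives. With the MEK inhibitor they held 33.3, 31.0 and 31.5 FPKM, above TCR (0.36 ± 0.06, adjusted p = 0.000512) and above the PI3K inhibitor (0.23 ± 0.06, adjusted p = 0.0137). Leaving out either the third PI3K inhibitor sample or the first MEK inhibitor sample took that last adjusted p to 0.0597 and 0.0585.

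Among the kinases, Cdk4 was lower after peptide and Cdk6 differed most with the MEK inhibitor. Cdk4 stood at 171, 171 and 172 FPKM in unstimulated CTL, the tightest triplicate of any member. After peptide it stood at 136, 118 and 129 FPKM, 1.34-fold lower (log2 -0.43 ± 0.06, limma adjusted p = 1.42e-05). With the PI3K inhibitor it ranged from 110 to 124 FPKM and with the MEK inhibitor from 122 to 128 FPKM, and both overlapped TCR. The differences from TCR were -0.14 (interval -0.27 to -0.02; adjusted p = 0.0904) and -0.02 (interval -0.15 to 0.11; adjusted p = 0.811). On the common FPKM sum both changed sign, to 0.04 and to 0.24 with limma adjusted p = 0.000707, so no direction is given for Cdk4 with inhibitor. Over the 20 alternatives the adjusted p ran from 0.0255 to 0.854 for the PI3K inhibitor and from 0.000707 to 0.987 for the MEK inhibitor. Of the length of the Cdk4 exons merged over GENCODE transcripts (3249 bases, against 2053 for RefSeq), 19.7% is shared with Tspan31 on the opposite strand.

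The Cdk4 window (chr10:127063285-127063534, + strand, RefSeq GRCm38.p6) holds 4 E-boxes, whose first bases lie 172, 118, 98 and 11 bases before the start, and the Cdk6 window (chr5:3343643-3343892, + strand) holds 1, at 220 bases. The Cdk4 window is shown because no other member window holds more than 1 match.
Cdk4 promoter: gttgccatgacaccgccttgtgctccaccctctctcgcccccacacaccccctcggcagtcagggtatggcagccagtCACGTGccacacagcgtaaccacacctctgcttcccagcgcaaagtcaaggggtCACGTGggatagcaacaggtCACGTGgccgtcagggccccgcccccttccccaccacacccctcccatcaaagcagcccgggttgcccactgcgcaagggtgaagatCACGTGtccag

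Cdk6 was the noisier of the 2 kinases. It held 36.0, 32.7 and 28.1 FPKM in unstimulated CTL and 21.3, 26.6 and 27.9 FPKM after peptide. The groups did not overlap, but the lowest unstimulated sample (28.08) and the highest TCR sample (27.95) almost met. The log2 difference of -0.35 ± 0.12 (limma adjusted p = 0.0188) was lost without the first unstimulated sample (-0.27, adjusted p = 0.0885) or without the first TCR sample (-0.24, adjusted p = 0.103). TCR+PI3Kdi samples held 22.6, 31.3 and 29.4 FPKM, which overlapped both other groups. With the MEK inhibitor they held 37.9, 39.2 and 37.6 FPKM, above every sample of the other 3 groups. That was 0.60 ± 0.12 above TCR (adjusted p = 0.00146) and 0.47 ± 0.12 above the PI3K inhibitor (adjusted p = 0.00897), but relative to unstimulated CTL the difference of 0.25 (interval -0.01 to 0.51) had adjusted p = 0.0894. Over the alternatives this last adjusted p ran from 0.0241 to 0.553.

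The 2 CIP/KIP inhibitors moved in opposite directions after peptide. Cdkn1a, which encodes p21, was among the highest members throughout, with 204, 181 and 189 FPKM in unstimulated CTL and 324, 302 and 324 FPKM after peptide. The 1.66-fold higher level (log2 0.73 ± 0.06, limma adjusted p = 8.14e-08) did not reach 2-fold under any of the 20 alternatives, over which it ran from 0.32 to 0.77. Samples given IC87114 held 238, 211 and 240 FPKM and those given PD184252 held 249, 235 and 251 FPKM, between the unstimulated and the TCR samples. The difference from TCR was -0.47 ± 0.06 with the PI3K inhibitor (adjusted p = 0.000108) and -0.37 ± 0.06 with the MEK inhibitor (adjusted p = 0.000386, both limma). On the common FPKM sum the latter was -0.11 with limma adjusted p = 0.148, the highest of its 20 alternatives, and the difference between the PI3K inhibitor group and unstimulated CTL shrank from 0.26 (adjusted p = 0.00221) to 0.03 (adjusted p = 0.687), likewise the highest. Of the merged GENCODE exons of Cdkn1a, 7.68% is shared with AC167363.2 on the opposite strand.

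Cdkn1b, which encodes p27, was the least abundant member after peptide. Its samples held 10.4, 8.77 and 10.2 FPKM in unstimulated CTL and 4.47, 4.11 and 3.73 FPKM after peptide, a 2.35-fold fall (log2 -1.23 ± 0.11, limma adjusted p = 1.82e-07). In TCR+PI3Kdi samples they were 7.19, 6.93 and 7.58 FPKM and in TCR+MEKi samples 8.17, 6.08 and 6.6 FPKM. This was the member that differed most from TCR under either inhibitor, by 0.81 ± 0.11 (adjusted p = 0.000168) and 0.74 ± 0.11 (adjusted p = 0.000180, both limma), and all 6 inhibitor samples lay above all 3 TCR samples and below all 3 unstimulated samples. Cdkn1b therefore stood at 41.9% of its unstimulated mean after peptide, 73.9% in TCR+PI3Kdi samples and 71.0% in TCR+MEKi samples. The Cdkn1a to Cdkn1b ratio of FPKM was 18.5 to 20.6 in unstimulated CTL, 72.5 to 87.0 after peptide, 30.4 to 33.0 with the PI3K inhibitor and 30.5 to 38.7 with the MEK inhibitor; only the ranges of the 2 inhibitors overlapped.

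Both pocket proteins fell after peptide. Rb1, for the retinoblastoma protein, held 11.96, 11.8 and 12.9 FPKM in unstimulated CTL and 4.32, 5.64 and 5.40 FPKM after peptide, a 2.37-fold fall (log2 -1.25 ± 0.10, limma adjusted p = 3.30e-08). TCR+PI3Kdi samples held 7.13, 7.99 and 7.57 FPKM and TCR+MEKi samples 7.16, 7.01 and 7.59 FPKM, in each case between the other 2 groups. The difference from TCR was 0.56 ± 0.10 (adjusted p = 0.000896) and 0.50 ± 0.10 (adjusted p = 0.00122, both limma). Rb1 shares 8.11% of its merged GENCODE exon length (6015 bases, against 4656 for RefSeq) with Rcbtb2 and 6.78% with Lpar6, both on the opposite strand.

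Rbl1, for p107, held 16.2, 16.5 and 15.6 FPKM in unstimulated CTL and 4.01, 4.97 and 5.05 FPKM after peptide, a 3.41-fold fall (log2 -1.77 ± 0.11, limma adjusted p = 1.87e-09). TCR+PI3Kdi samples held 5.74, 7.59 and 6.87 FPKM and TCR+MEKi samples 6.79, 7.31 and 7.33 FPKM, all above TCR (0.51 ± 0.11 and 0.61 ± 0.11, limma adjusted p = 0.00321 and 0.000616). Rbl1 and Ccnd3 were the only members still called lower than in unstimulated CTL with either inhibitor, 2 of 10 in each comparison against 7.43% (PI3K inhibitor) and 6.46% (MEK inhibitor) of all genes called lower. Rbl1 stood at log2 -1.25 ± 0.11 with the PI3K inhibitor (adjusted p = 1.30e-07) and -1.16 ± 0.11 with the MEK inhibitor (adjusted p = 3.27e-07), and Ccnd3 at -2.66 ± 0.09 and -2.29 ± 0.09 (adjusted p = 4.62e-12 and 2.92e-11). Its window (chr2:157204535-157204784, - strand, RefSeq GRCm38.p6) is the only member window with a match to the E2F site, TTTCGCGC at 18 to 11 bases before the start.
Rbl1 promoter: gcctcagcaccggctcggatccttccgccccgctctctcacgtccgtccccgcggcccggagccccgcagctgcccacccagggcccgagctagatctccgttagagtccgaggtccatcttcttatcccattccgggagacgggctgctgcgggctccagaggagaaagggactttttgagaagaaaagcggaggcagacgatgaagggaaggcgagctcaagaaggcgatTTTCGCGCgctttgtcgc

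The inhibitors were also compared with each other. None of the 10 members was called in limma or by voom, 3 had an unadjusted p under 0.05, and 3.09% of all genes were called. The same 3 passed the adjusted p, against 28.9% of all genes, and did not overlap between the groups, against 43.6%: Cdk6, Ccnd3 and Ccne1, all higher with the MEK inhibitor, by 0.47 ± 0.12, 0.37 ± 0.09 and 0.23 ± 0.06. After rescaling to a common FPKM sum 5 members passed, with Cdk4 (0.20, limma adjusted p = 0.00505) and Cdkn1a (0.18, adjusted p = 0.0385) added, and Cdk4 also passed without the first PI3K inhibitor sample. For the 7 members that did not pass before rescaling, the 95% intervals of the log2 difference reached from -0.31 at the lowest, for Cdkn1b, to 0.33 at the highest, for Rbl1.

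Other genes of the pathway were taken as 9 lists. Of 8 other G1 cyclins and activating kinases, Cdk2, the partner of the E cyclins, fell after peptide from 22.3 ± 0.89 to 7.56 ± 0.61 FPKM (log2 -1.55 ± 0.09, limma adjusted p = 7.49e-10), and the other 7 were not called. With a common FPKM sum 2 of the 8 were called lower, and the genes passing the adjusted p went from 5 higher and 3 lower to 0 higher and 4 lower, so no direction is given for this list. Ccnd1, the D cyclin that CTL barely express, stood at 0.65 ± 0.23 FPKM in unstimulated CTL and at 1.40 ± 0.55 after peptide. It fell to 0.22 ± 0.08 FPKM with the PI3K inhibitor (log2 -2.20 ± 0.31, limma adjusted p = 0.000154) and to 0.31 ± 0.08 FPKM with the MEK inhibitor (-1.84 ± 0.31, adjusted p = 0.000349), the only gene of that list called with either, on all 3 scalings. All 3 scalings used the pseudocount of 0.1. At levels this low the size of the fold depends on it, and a pseudocount of 1 would shrink the fold. Whether Ccnd1 is still called there is not given here. Of the 4 other CDK inhibitors measured out of 5 listed, Cdkn2c fell from 18.9 ± 0.39 to 7.02 ± 0.58 FPKM (log2 -1.42 ± 0.09, adjusted p = 4.14e-09) and Cdkn2d from 63.5 ± 1.7 to 15.3 ± 1.2 FPKM (-2.05 ± 0.08, adjusted p = 9.58e-12), and none was called with an inhibitor. Both fell by the call rule, whereas the other 2 of the 4 were higher at the adjusted p alone.

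The pocket protein outside the 10, Rbl2, was not called in any of the 3 main comparisons. It stood at 29.4 ± 0.77 FPKM in unstimulated CTL, 18.05 ± 1.9 after peptide, 21.8 ± 2.2 in TCR+PI3Kdi samples and 31.3 ± 1.3 in TCR+MEKi samples. The MEK inhibitor difference of 0.80 ± 0.08 (limma adjusted p = 4.77e-06) reached 1.06 on the common FPKM sum and was then called, as was the difference between TCR and unstimulated CTL, which went from -0.71 to -1.12.

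Downstream of the pocket proteins, 5 of 10 E2F and DP factors fell after peptide (E2f1, E2f2, E2f7, E2f8 and Tfdp2) and none rose, with a list median of -0.94 against -0.01 over all genes. E2f2 changed most, from 8.85 ± 0.13 to 1.23 ± 0.02 FPKM (log2 -2.75 ± 0.13, limma adjusted p = 1.18e-10), and it was the 1 factor called with an inhibitor on the deposited scale, rising to 2.80 ± 0.48 FPKM with the MEK inhibitor (1.11 ± 0.13, adjusted p = 1.90e-05). At the adjusted p alone 9 factors were lower after peptide and 1 was higher. With a common FPKM sum 7 factors were called lower after peptide, and 3 were called higher with the MEK inhibitor, E2f2 (1.36), E2f7 (1.19) and Tfdp2 (1.17). Of 16 G1/S genes known as E2F targets, 13 fell after peptide and the other 3, Pcna, Orc1 and Tyms, were lower at the adjusted p alone. The list median was -1.42. Rrm2, a subunit of ribonucleotide reductase, fell from 216.5 ± 9.8 to 55.5 ± 4.5 FPKM, and Cdc6, which loads the replicative helicase, from 15.7 ± 0.67 to 4.36 ± 0.27 FPKM. None of the 16 was called with an inhibitor; at the adjusted p alone 7 were higher in TCR+PI3Kdi and 13 in TCR+MEKi samples, and 0 were lower with either. With a common FPKM sum these counts were 14 and 16, and under quantile normalisation they were 9 and 13. On these scalings, in that order, 15 and 14 of the 16 were called lower after peptide. The common sum also moved the median of all genes against TCR, to 0.19 in TCR+PI3Kdi and 0.26 in TCR+MEKi samples. Of the 16, 14 lay above that median and 2 below in TCR+PI3Kdi, and 16 above and 0 below in TCR+MEKi samples. How much of the larger counts comes from that shift was not tested, and the share of all genes passing there is not given.

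Of 5 cyclin and kinase genes of S, G2 and M phase, Ccna2, Ccnb2 and Ccnf fell after peptide and Ccnb1 and Cdk1 were lower at the adjusted p alone. Ccna2, for cyclin A2, fell from 78.6 ± 1.6 to 28.5 ± 0.26 FPKM. None of these 5 was called with an inhibitor, and 4 were higher at the adjusted p alone with each. All 5 were called lower after peptide when a common FPKM sum was used, and all 5 were then higher at the adjusted p with each inhibitor. That rescaling moved the median of all genes to -0.41 after peptide, and against TCR to 0.19 in TCR+PI3Kdi and 0.26 in TCR+MEKi samples. All 5 lay below that median after peptide and above it with each inhibitor. Of the 6 ubiquitin ligase genes measured that turn over p27 and cyclin E, none was called in the 3 main comparisons, while 1 was called lower after peptide with a common FPKM sum.

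Among 10 p53 target genes, to which Cdkn1a also belongs, there was no common direction after peptide: Btg2 rose, Phlda3 and Trp53inp1 fell and 7 were not called, with a median of 0.05. Trp53inp1 was the 1 target called with an inhibitor on the deposited scale, rising from 5.13 ± 1.1 to 16.03 ± 1.2 FPKM in TCR+PI3Kdi samples (log2 1.64 ± 0.13, limma adjusted p = 1.09e-06). By the adjusted p alone, 3 targets were higher and 2 lower with the PI3K inhibitor. In TCR+MEKi samples 7 were higher and 2 lower, with a median of 0.49 against 0.01 over all genes. Under quantile normalisation these last counts were 7 and 1. With a common FPKM sum 3 targets were called lower after peptide, and 2 were called higher with the MEK inhibitor, among them Phlda3 at 1.23. Of 5 MYC and FOXO genes, Myc rose from 125 ± 1.9 to 290 ± 20.9 FPKM after peptide (1.22 ± 0.06, adjusted p = 1.97e-10), Mycn and Foxo4 fell, and Foxo1 and Foxo3 were not called. The call for Myc was lost on the common FPKM sum, at 0.80, and under quantile normalisation, at 0.97.

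**Figure D4:**
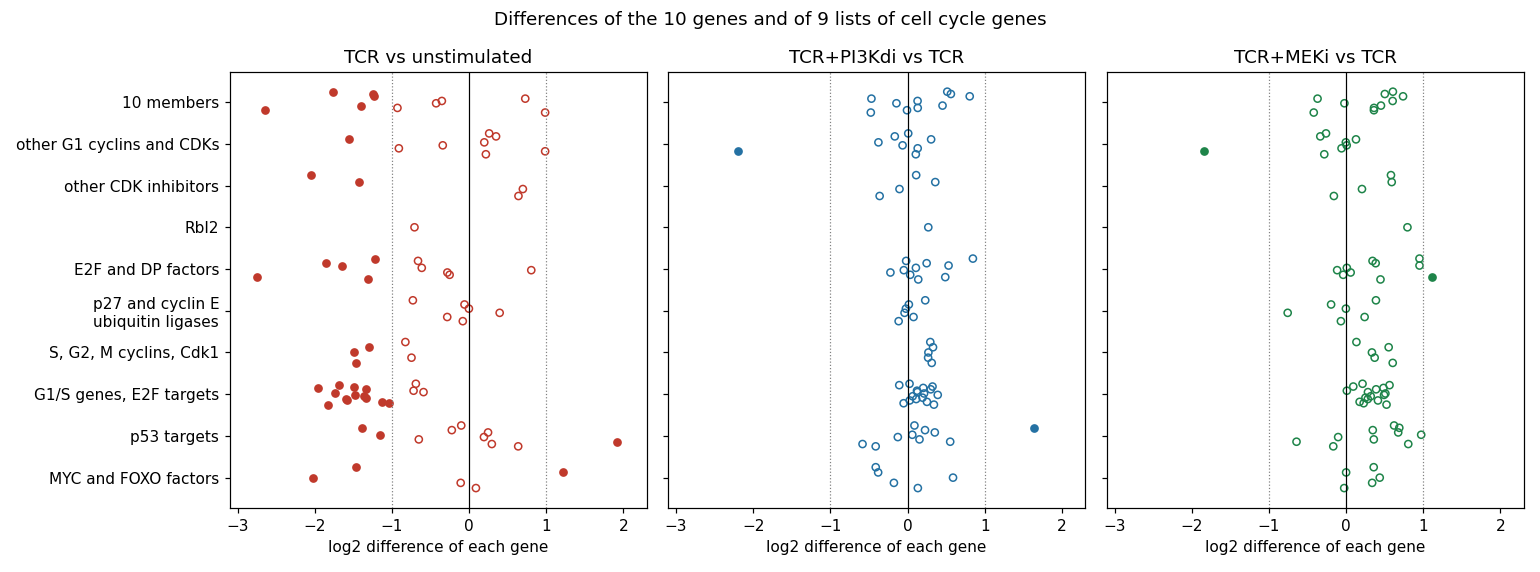
Log2 difference of each gene (horizontal axis) for the 10 members and the 9 lists of other cell cycle genes, in TCR against unstimulated, TCR+PI3Kdi against TCR and TCR+MEKi against TCR; filled circles are called changed and dotted lines mark a 2-fold difference. After peptide 13 of 16 E2F target genes are called lower, while on this deposited scale, with an inhibitor, only Ccnd1, Trp53inp1 and E2f2 of the listed genes are called.

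The genes whose profile over the 12 samples was most like that of a D cyclin were taken from 9898 other genes with a mean of at least 1 FPKM, by the root mean square difference of centred log2 values. For Ccnd2 these were Ubxn2a (0.09), 0610007L01Rik (0.09) and Wdr12 (0.09). Wdr12 stood at 17.2 ± 0.28 FPKM in unstimulated CTL, 32.0 ± 0.63 after peptide, 23.8 ± 0.78 with IC87114 and 24.0 ± 0.41 with PD184252. For Ccnd3 they were Mtap6 (0.14), Susd3 (0.16) and Rab3d (0.18), and Susd3 stood at 51.0 ± 0.49, 6.41 ± 0.81, 7.12 ± 0.79 and 10.2 ± 0.98 FPKM in the same order of groups. These are descriptions over samples that share a library preparation kit and a sequencing lane, and they carry no test.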

How the data were processed

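RNA was measured in 12 CTL samples (4 groups of 3, grouped by the labels). The authors aligned reads to mm10 with STAR 2.4.2a, counted RefSeq genes with Subread 1.5.0, filtered low genes, and deposited TMM-scaled FPKM from edgeR, using summed exon length. Counts were not used here, so FPKM were tested as log2(FPKM + 0.1) with limma 3.58.1 in R 4.3.3 (1 mean per group, trend, 12 samples), adjusted over 11022 genes. The p-values rest on 3 biological replicates a group, with the spread of each gene pooled over the 4 groups and moderated across genes.

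The 10 members, the pathway lists and the motifs were chosen with earlier results of these data known. Listed genes were named where called in a main comparison, and Rbl2, Pcna, Orc1, Tyms, Ccnb1, Cdk1, Foxo1 and Foxo3 were named after their values were seen. Depth was read from steps in low FPKM, of which 59.0 to 73.8% lay within 0.15 of a whole read (30% for evenly spread values). The depth was chosen to maximise agreement with whole reads, so 30% is too low as a chance level. Reads are therefore approximate and cover counting error only. The replicate numbers were checked for pairing: same-numbered samples deviated together, with a correlation over 0.1 across 9899 genes, in 15 of 18 pairs, and in all 3 pairs for both inhibitors against TCR but not for TCR against unstimulated; the labels do not say what a number shares. Alternatives were pseudocounts of 1 and 0.01, a mean FPKM of at least 1, a common FPKM sum, quantile normalisation, a replicate block, the compared groups alone, each sample left out and, chosen after seeing the data, voom on approximate reads. Tested on simulated data for TCR against unstimulated, the fit recovered 197 of 200 changed genes, with 1 false call among the unchanged genes of the 11022. All simulated differences were larger than 2-fold, and the noise was independent between samples. The test therefore does not cover smaller differences, such as those of the members with an inhibitor.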

Additional observations from a re-analysis of the deposited data

How the results depend on the processing

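The counts of members called did not move by more than 1.5 times except for TCR+PI3Kdi against unstimulated on the common FPKM sum, where 4 members were called in place of 2. A pseudocount of 1 lowered the counts of all genes called from 2202 to 1405 for TCR against unstimulated, from 207 to 90 for TCR+PI3Kdi against TCR, from 385 to 201 for TCR+MEKi against TCR, from 341 to 150 for TCR+MEKi against TCR+PI3Kdi, from 1608 to 979 for TCR+PI3Kdi against unstimulated and from 1478 to 873 for TCR+MEKi against unstimulated; a larger pseudocount shrinks the fold of low genes by construction. Leaving out each replicate gave, in the same order, 2172 to 2268, 195 to 241, 377 to 440, 330 to 368, 1581 to 1633 and 1466 to 1529 genes, and 5 to 6, 0, 0, 0, 2 to 3 and 2 members. On the common FPKM sum the genes called higher and lower went from 978 and 1224 to 647 and 2276 for TCR against unstimulated, from 55 and 152 to 119 and 107 for TCR+PI3Kdi against TCR, from 108 and 277 to 323 and 202 for TCR+MEKi against TCR, from 789 and 819 to 623 and 1272 for TCR+PI3Kdi against unstimulated and from 766 and 712 to 660 and 1003 for TCR+MEKi against unstimulated. With the replicate block, 5, 0, 0, 0, 2 and 2 members and 2206, 209, 389, 349, 1610 and 1478 genes were called, and the pairing moved no member across an adjusted p of 0.05. Depth limits Cdkn1b and Ccne2 most, and spliced forms and protein were not measured.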
